A study of Capra hircus with 6 samples.

Results

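Circular RNAs (circRNAs) whose ends lie close together on the genome, and to which the deposited annotation gives only an intron of an implausible host gene, were described in pre-ovulatory follicles of goats (Capra hircus). They were taken by a rule on 3 annotation columns. The distance between the ends had to be 1000 bases or less, the listed parts had to be introns only, and the host gene identifier had to be one found on 2 or more chromosomes or with a listed exon or intron over 1000000 bases. Of the 13950 distinct circRNAs of the 6 libraries, 1846 (13.2%) met this rule and are called the short unusable-host circRNAs here. No read count entered the rule directly. The files name a host, however, only where at least 1 non-junction read is listed. All 28310 entries with a host had one, and all 560 entries without a host had none, so a circRNA listed only with back-splice reads could not be chosen.

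A circRNA is a closed RNA molecule made when the spliceosome joins a downstream splice donor to an upstream splice acceptor, a step called back-splicing. Most described circRNAs consist of exons of protein-coding genes, while others hold retained introns or arise from intron lariats that escape debranching. Because they have no free ends, circRNAs resist exonucleases and can outlast the linear RNA of their gene. The read across the back-splice junction is what distinguishes a circRNA from linear RNA of the same place, and reads inside it can come from either.

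The study compared 3 Boer goats with 3 Macheng black goats, with 1 library of ribosome-depleted total RNA from ovarian follicle for each animal. The animals of both breeds had normal estrous cycles, and all 6 had been given 2 hormones, 1000 IU of pregnant mare serum gonadotropin (PMSG) to make follicles grow and 500 IU of human chorionic gonadotropin (hCG) to bring on ovulation. No untreated animals entered the comparison. Each file gives, for each circRNA, the number of reads on the back-splice junction and the number of non-junction reads, and no circRNA is listed with under 2 back-splice reads. A library that does not list a circRNA therefore held 0 or 1 such read, or the caller did not find it. The libraries held between 23480 and 74796 back-splice reads, so that 1 read was worth between 15.5 and 38.1 CPM, the counts scaled to a common library size. The labels do not say which follicle cells were taken. Among markers fixed for the cells of a follicle, a usable host with a listed circRNA was found for 1 of 8 granulosa markers (NR5A2, in 5 libraries), and for 0 of 4 theca, 0 of 5 oocyte, 0 of 3 endothelial and 0 of 3 leukocyte markers. Cell makeup therefore could not be read from these files. In whole tissue, fewer cells of a type and less RNA per cell cannot be told apart.

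The host annotation of these circRNAs was checked first. Of 829 host identifiers, 27 were unusable by the rule: all 27 had a part over 1000000 bases, and 14 were also spread over 2 or more chromosomes. The short unusable-host circRNAs carried 22 of these identifiers. The commonest, 102095676, was given to 264 of them (14.3%) on 21 chromosomes. The next, 102095649 and 102095692, were given to 220 on 17 chromosomes and 202 on 16 chromosomes. An identifier spread over many chromosomes does not name 1 host gene. The intron listed around a short unusable-host circRNA had a median length of 32747736 bases and ran from 419350 to 95910824, and it was over 1000000 bases in 3080 of 3082 entries (99.9%). Only 228 different introns were listed for all 1846. The listed spliced length equalled the full length in all 1846, so no stretch of the span was marked as removed.

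The spans of usable hosts, as far as the same files list them, were looked at next. None of the 1846 lay on the same strand inside the listed span of any of the 802 usable hosts that could be placed, and 8 lay inside one on the opposite strand. In the other direction, none of the 2051 circRNAs with a usable host lay inside an unusable intron on its own strand, while 1035 (50.5%) lay inside one on the opposite strand. Both same-strand results may follow from how the files assign hosts. They cannot show that no better host exists. The long introns thus ran over genes of the other strand. Of the 478 short unusable-host circRNAs listed in 2 or more libraries, 13 had host entries that differed among libraries. In all 13 the difference was a library that named no host and held no non-junction read. Since the hosts are unusable by the rule, no gene names are given to these circRNAs. They are called by their chromosome, start and end as in the files, counted from 1. Which genome build the files follow was not stated in the sources used here.

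The ends of the short unusable-host circRNAs lay 150 to 1000 bases apart, with a median of 436 bases and quartiles of 284 and 679. By strand, 968 were on the plus and 878 on the minus strand. The 3 shortest, of 150 bases each, were chr4:96033121-96033270 (3 back-splice reads and 1 non-junction read, in Macheng black 3), chr1:68406979-68407128 (2 and 3 reads, in Macheng black 1) and chr29:41462422-41462571 (2 and 17 reads, in Macheng black 1). The length limit does not fall in a gap. The 3 longest inside it, chr24:56237151-56238150, chr16:26935511-26936510 and chrX:15658593-15659592, had 1000 bases and were listed in 2, 1 and 1 libraries with 5, 2 and 2 back-splice reads. The 3 next outside it, chr13:11674531-11675532, chr10:69936037-69937038 and chr3:44568478-44569479, had 1002 bases and were listed in 6, 5 and 1 libraries with 67, 59 and 2 back-splice reads.

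Most of the short unusable-host circRNAs were rare and most of their reads came from a few. Together they held 24987 of 252857 back-splice reads (9.88%) and 1043461 of 16624659 non-junction reads (6.28%). For 1084 of them (58.7%) the total over all 6 libraries was 2 back-splice reads, the lowest number that the files list, and 34 had over 100. The 3 most abundant held 31.7% of the class's back-splice reads, the 10 most abundant 41.7% and the 100 most abundant 70.7%. Boer 1 listed 648 of them, Boer 2 listed 433 and Boer 3 listed 520. The Macheng black libraries listed 480, 551 and 469. In every library between 45.8% and 61.6% of those listed had the minimum of 2 reads.

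Listing was seldom shared between animals. Of the 1846, 1368 (74.1%) were listed in 1 library, and these held 12.9% of the class's back-splice reads. At the other end, 92 (4.98%) were listed in all 6 libraries and held 68.2% of the reads, while 176, 80, 61 and 69 were listed in 2, 3, 4 and 5. Among the 9631 circRNAs with the same kind of host annotation and a span over 1000 bases, 55.9% were listed in 1 library and 8.56% in all 6, and among all 13950 the shares were 59.3% and 8.11%. The 85 short intron-only circRNAs with a usable host had 77.6% and 4.71%, close to the short unusable-host circRNAs, and the 140 short circRNAs with a listed exon had 65% and 9.29%. In a single library, between 35.8% (Macheng black 1) and 50.1% (Macheng black 3) of the short unusable-host circRNAs were listed in no other. Boer 1 and Macheng black 2, the libraries with the most reads, shared 249, which is 38.4% of those of Boer 1 and 45.2% of those of Macheng black 2. Boer 2 and Macheng black 3, with the fewest reads, shared 129, or 29.8% and 27.5%. The smallest number shared was thus that of the libraries of lowest depth. As a share of 1 library's list, the lowest overlap was that of Boer 1 with Boer 2, 26.7% of those of Boer 1. Libraries of the same breed shared 158 to 234.

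**Figure D1:**
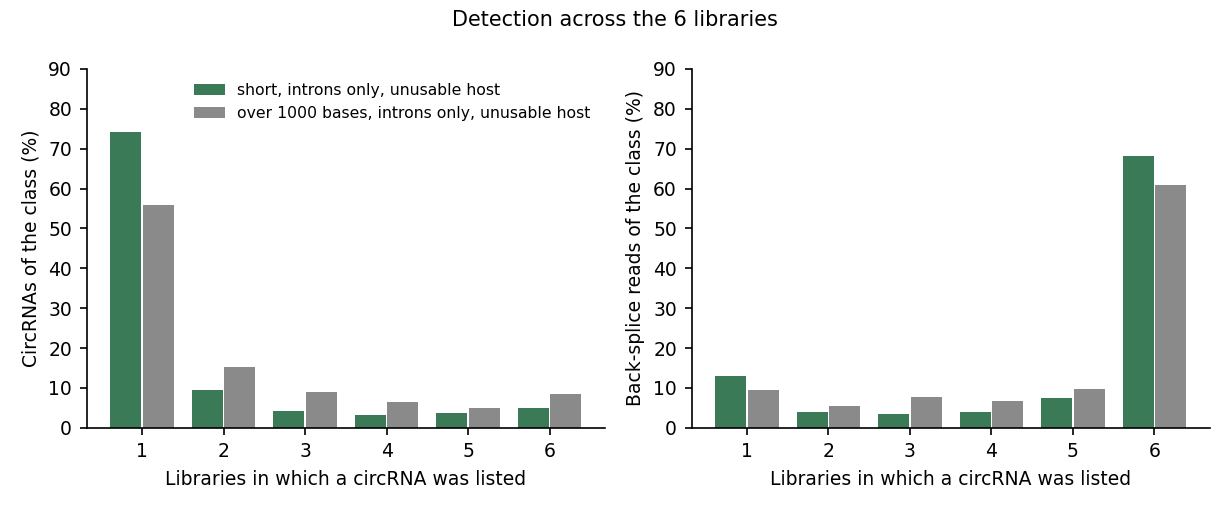
Detection of the short unusable-host circRNAs (green) and of circRNAs over 1000 bases with the same kind of host annotation (grey). The left panel gives the percentage of each class's circRNAs by the number of libraries that listed them, and the right panel the percentage of its back-splice reads. The green bar is higher at 1 library (74.1% against 55.9%) and lower at 6 (4.98% against 8.56%), while 68.2% of the reads fall on those listed in all 6.

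Length went with detection inside the class. Of the 344 with 150 to 250 bases, 84.6% were listed in 1 library and 4 in all 6. Of the 734 with 251 to 500 bases, 78.1% were listed in 1 library and 31 in all 6. The 414 with 501 to 750 bases and the 354 with 751 to 1000 bases had 68.1% and 62.7% in 1 library, and 30 and 27 in all 6. The median length was 404 bases among those listed in 1 library and 568.5 bases among those listed in all 6.

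The 10 most abundant were listed in every library and reached very different levels. First came chr24:40207860-40208323, 464 bases on the minus strand, with back-splice reads of 1087, 452 and 460 in the Boer animals and 397, 796 and 345 in the Macheng black animals. Its non-junction reads numbered 226, 123 and 143 in Boer and 104, 125 and 120 in Macheng black. Back-splice reads thus outnumbered the other reads in every library, and made up 74.2% (Macheng black 3) to 86.4% (Macheng black 2) of both kinds. Its level of 14344 ± 3171 CPM in the Boer libraries overlapped that of 13869 ± 3226 CPM in the Macheng black libraries (SD, n = 3 each).

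The circRNA chr7:12693629-12694180, 552 bases on the minus strand, was next with 732, 175 and 339 back-splice reads in Boer and 310, 581 and 265 in Macheng black. It had far more non-junction reads, 2148, 768 and 1257 in Boer and 1156, 1679 and 1083 in Macheng black. Its back-splice share, the percentage of both read kinds that crossed the junction, was 22.0% ± 2.97 (SD, n = 6). High abundance and a high back-splice share therefore did not always go together.

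The opposite held for chr15:27869239-27870107, 869 bases on the minus strand. It had 548, 193 and 400 back-splice reads in Boer and 325, 222 and 299 in Macheng black. Only 16, 4 and 3 non-junction reads were listed in Boer and 3, 3 and 1 in Macheng black. With a back-splice share of 98.6% ± 0.923 (SD, n = 6), nearly every read listed for it crossed the junction, although its span is 869 bases. These 3 circRNAs were the only ones of the class to hold over 1% of the back-splice reads of any library, as 15 circRNAs in all did.

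The other 7 of the 10 had means between 870.3 and 2320.4 CPM. On chromosome 14, chr14:75877520-75878366 (847 bases) had 194, 45 and 91 back-splice reads in Boer and 83, 158 and 39 in Macheng black, with a share of 55.9% ± 11.1 (SD, n = 6). A second one there, chr14:73961357-73961777 (421 bases), had 80, 34 and 44 against 64, 49 and 22 reads and a share of 56.3% ± 10.9. The lowest share of the 7 was that of chr6:42973034-42973783 (750 bases), 33.4% ± 4.28, on 118, 37 and 81 against 47, 121 and 47 reads. In both chromosome 14 circRNAs the lowest share was that of Macheng black 3, the shallowest library.

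On chromosome 5, chr5:37187255-37187580 (326 bases) had 54, 25 and 36 reads in Boer and 36, 44 and 19 in Macheng black, and a share of 77.5% ± 6.51. The pair chr10:13808217-13809061 (845 bases) and chr9:75419129-75419738 (610 bases), had shares of 48.6% ± 13.7 and 49.7% ± 16.4. In chr10:13808217-13809061 Boer 1 stood at 73.5% and Boer 2 at 33.9%, so the spread between animals of 1 breed covered the values of the other breed. Sixth of the 10 in mean CPM, chr5:100365306-100366144 (839 bases), had 129, 58 and 74 reads in Boer and 54, 67 and 13 in Macheng black. Its levels of 1903 ± 149 CPM (Boer) and 1155 ± 573 CPM (Macheng black; SD, n = 3 each) did not overlap, but the difference did not pass the test given below.

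**Figure D2:**
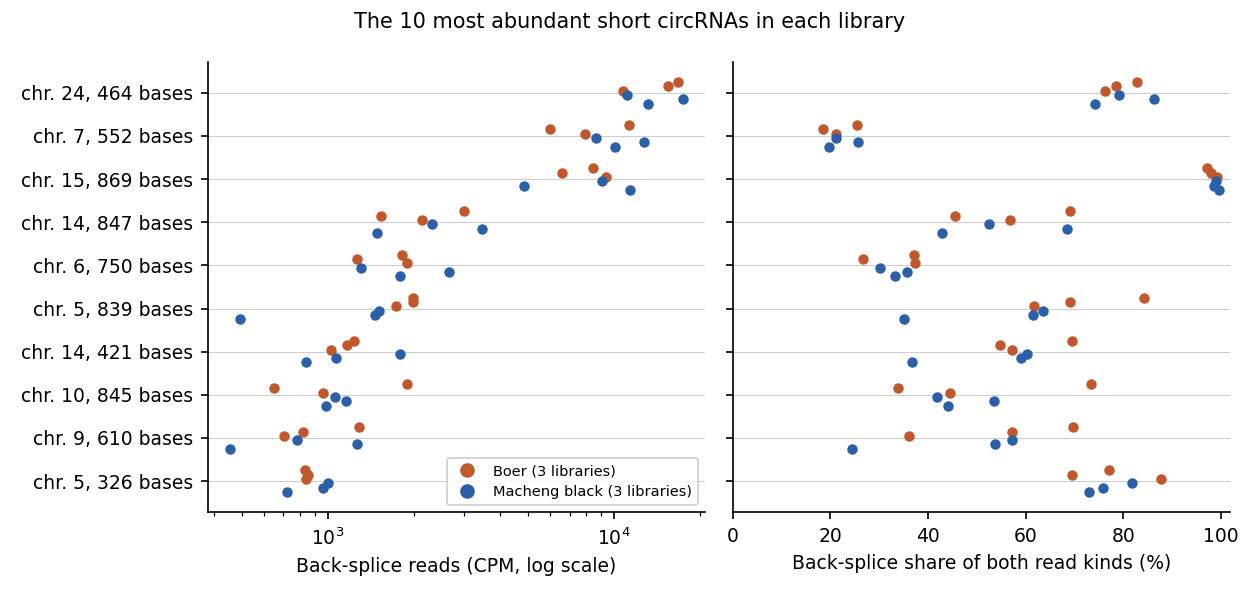
The 10 most abundant short unusable-host circRNAs, named by chromosome and length, with 1 point for each library (Boer orange, Macheng black blue). The left panel gives back-splice reads in CPM on a log scale and the right panel the back-splice share of both read kinds in percent. The first 3 stand above the rest in level, while their shares are 79.6%, 22.0% and 98.6%.

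The back-splice share was spread widely among the 92 listed in all 6 libraries. Its mean over libraries was under 5% in 21 of them, 5 to under 25% in 34, 25 to under 50% in 23 and 50% or more in 14, with a median of 17.8%. It varied more between circRNAs than between animals: the SD of the means was 25.1 points, and the median SD of 1 circRNA over the 6 libraries was 6.30 points. As a description, the Spearman rho of the 92 breed means was 0.96 for the share and 0.85 for the CPM of Boer against Macheng black, and 0.44 for mean CPM against mean share. Points of each pair share their libraries, and the share and the CPM share the back-splice count.

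Among the 90 of these with at least 20 back-splice reads in total, the highest shares after chr15:27869239-27870107 were those of chr18:34485311-34485686 (376 bases, 94.6% ± 4.29), chr17:68118732-68118996 (265 bases, 90.2% ± 8.32) and chr25:21263506-21263906 (401 bases, 86.9% ± 14.9; SD, n = 6 each). The first had 14 to 29 back-splice reads and 0 to 3 non-junction reads in each library, so its share rests on few reads. The last had 2 to 7 back-splice reads and 0 to 2 non-junction reads. All 3 had at least 1 library without a non-junction read, in which the files name no host, and met the rule through the other libraries.

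At the low end stood chr29:41465632-41465792 (161 bases, 0.827% ± 0.342), chr19:32417455-32417682 (228 bases, 0.929% ± 1.18), chr3:90313681-90314550 (870 bases, 0.994% ± 0.416) and chr2:104046592-104047237 (646 bases, 1.15% ± 0.170; SD, n = 6 each). The last had 2 to 6 back-splice reads beside 213 to 615 non-junction reads in every library, and its share stayed between 0.930% and 1.35%. In chr19:32417455-32417682 Macheng black 3 had a share of 3.31% on 46 back-splice reads, while the other 5 libraries stood between 0.260% and 0.772%. Its mean without Macheng black 3 was 0.453%, so that library raised the mean, and the share was low in all 6.

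Over all listed short unusable-host circRNAs, the median back-splice share per library was 10.5%, 7.89% and 9.22% in Boer and 11.2%, 11.1% and 8.33% in Macheng black. In circRNAs over 1000 bases with the same kind of host annotation it was 1.58% ± 0.321, in all other circRNAs outside the classes named here 2.67% ± 0.590, and in the short unusable-host class 9.71% ± 1.43 (SD, n = 6 each). Short circRNAs with a listed exon, 140 in all, had 15.3% ± 2.88. The 85 short intron-only circRNAs with a usable host, 17 to 27 per library, had 37.3% ± 11. In every library the short unusable-host class lay above the long-span class and all other circRNAs, and below both other short classes.

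The difference was 8.12 ± 1.24 points from the long-span class and 7.04 ± 1.12 points from all other circRNAs, higher in 6 of 6 libraries. It was -5.60 ± 2.81 points from short circRNAs with a listed exon and -27.6 ± 10.2 points from short intron-only circRNAs with a usable host, lower in 6 of 6 (SD, n = 6 each). Each of the 4 differences passed an exact sign-flip permutation test over the 6 libraries, two-sided, at an adjusted p of 0.0417, with Benjamini-Hochberg adjustment over 8 comparisons. The unadjusted p of 0.03125 is the smallest that 6 libraries can give, and none of the 4 could pass with a library left out. When reads were summed over a class before the share was taken, the differences from the long-span class and from all other circRNAs were 1.01 points (adjusted p = 0.05) and 0.323 points (adjusted p = 0.0714). These sums include the chromosome 29 group described below, which holds 59.9% of the class's non-junction reads. Without it, an alternative chosen after seeing the data, the summed-read differences were 4.45 points from the long-span class and 3.77 points from all other circRNAs (adjusted p = 0.0417 each, same exact test).

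Both read kinds enter this share, and length goes with it. A listed circRNA had a median of 32.1 ± 2.87 non-junction reads in the short unusable-host class and 267 ± 30.4 in the long-span class (SD over 6 libraries). Per 100 bases of span the order was the other way, with 6.75 ± 0.805 against 3.51 ± 0.447 reads. Short circRNAs with a listed exon had 5.50 ± 1.15 reads per 100 bases, and short intron-only circRNAs with a usable host 1.34 ± 0.611. Within the short unusable-host class, the median share per library was 15.7% ± 2.95 at 150 to 250 bases, 10.7% ± 2.07 at 251 to 500, 8.04% ± 2.20 at 501 to 750 and 8.0% ± 1.90 at 751 to 1000 bases (SD, n = 6 each). The part of length in the class differences was not tested. Back-splice reads made up 50% or more of both kinds in 11.3% ± 1.15 of the entries of the class and in 0.884% ± 0.334 of those of the long-span class. The share of such entries was 10.8% ± 3.13 in short circRNAs with a listed exon, 13.7% ± 1.56 in all others and 43.1% ± 12.4 in short intron-only circRNAs with a usable host (SD, n = 6 each). All others also took in circRNAs outside the class whose first listed entry named no host. The 560 entries without a host, 19 of them in the class, had no non-junction read. Each of them thus passed 50% by construction, and the 13.7% is not a share among circRNAs with a host.

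**Figure D3:**
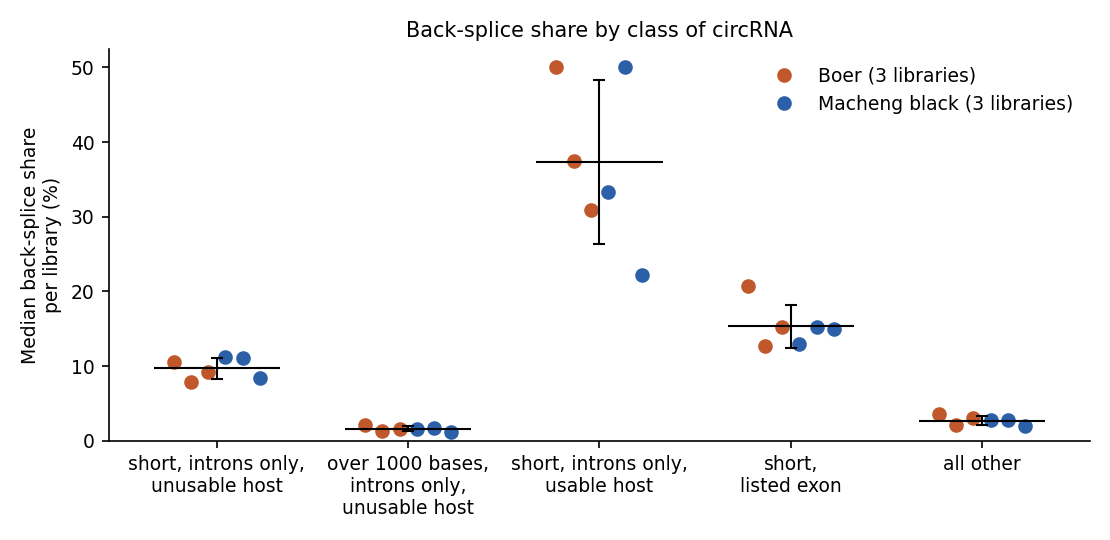
Median back-splice share, in percent of back-splice and non-junction reads, over the listed circRNAs of each of 5 classes, with 1 point for each library (Boer orange, Macheng black blue). Black lines and bars are the mean and SD over the 6 libraries. The short unusable-host class (left) averages 9.71%, above the long-span class at 1.58% and below short circRNAs with a listed exon at 15.3%.

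In back-splice reads per listed circRNA the class had lower means than short intron-only circRNAs with a usable host. The mean number of reads was 10.8, 6.17 and 7.85 in the Boer animals and 7.70, 8.73 and 5.84 in the Macheng black animals. Against the long-span class the log2 difference was -0.13 ± 0.14 (adjusted p = 0.125), and against all other circRNAs -0.15 ± 0.13 (adjusted p = 0.0714), in the same exact sign-flip permutation test. It was -1.14 ± 0.40 against short intron-only circRNAs with a usable host and 0.10 ± 0.07 against short circRNAs with a listed exon (adjusted p = 0.0417 each). The last 2 differences amount to 0.454-fold and 1.07-fold. Medians in place of means ended both: they were 0.0 (adjusted p = 1.0) and -0.36 (adjusted p = 0.143) in the same exact test. In the usable-host class, 4 circRNAs listed in all 6 libraries held 86.4% of the back-splice reads. Without the 15 circRNAs over 1% of a library, the differences in means were -0.48 from the long-span class and -0.52 from all others. They were then -1.67 from the usable-host class and -0.43 from short circRNAs with a listed exon (adjusted p = 0.0312 each of the 4), the last with the sign turned.

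The class was found on all 30 chromosomes of the files and on none of the 57 scaffolds, which held 127 circRNAs in all. By number most lay on chromosome 3 (113), chromosome 2 (108) and chromosome 1 (107). As a share of a chromosome's circRNAs the median was 13.0%. Chromosome 29 was highest with 81 of 319 (25.4%, exact Clopper-Pearson 95% interval 20.7 to 30.5%) and chromosome 18 next with 55 of 285 (19.3%, 14.9 to 24.4%). The lowest were chromosome 28 with 21 of 253 (8.30%, 5.21 to 12.4%) and chromosome 12 with 30 of 351 (8.55%, 5.84 to 12%). These intervals treat circRNAs as independent, cover counting error only, and belong to chromosomes picked as the extremes of the 30. On chromosome 29, 25 of the class lay in a single place described below, so its interval is likely too narrow. Reads followed the abundant circRNAs instead: chromosomes 24, 7 and 15, home of the top 3, held 15.2%, 12.9% and 10.3% of the class's back-splice reads.

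Few of these circRNAs were variants of one another. Merged by overlap on 1 strand they formed 1765 groups, and 1714 of the 1846 overlapped no other of the class. Only 19 (1.03%) had another circRNA of any class on the same strand with both ends within 10 bases. A start or an end was shared with some other circRNA of any class by 396 (21.5%), against 55.7% in the long-span class. This sharing also went with detection: 187 of those listed in 1 library (13.7%) shared an end, and 43 of those listed in all 6 (46.7%). Inside a longer listed circRNA of the same strand lay 486 (26.3%), with 19.1% of those listed in 1 library and 50% of those listed in all 6.

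Starts or ends used by 2 or more of the class numbered 39. The most used was position 49939026 on chromosome 22, minus strand, the end of 4 circRNAs. Of these, chr22:49938655-49939026 (372 bases) was listed in all 6 libraries with 3, 10 and 6 reads in Boer and 3, 3 and 2 in Macheng black. Its partners chr22:49938643-49939026, chr22:49938645-49939026 and chr22:49938486-49939026 were listed in 4, 1 and 1 libraries, with 2 or 3 reads in each. One start was thus used in every library and the others in part of them. Position 7362935 on chromosome 2, minus strand, was the end of 3 circRNAs of 209 to 231 bases, each listed in a different library (Boer 2, Boer 3 and Macheng black 2) with 2 or 3 reads. Position 70082522 on chromosome X, minus strand, was the start of 3, of which chrX:70082522-70082702 was listed in 4 libraries with 2 to 4 reads.

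The high count of chromosome 29 came in part from 1 place, singled out after its values were seen. There, 25 of the class lay on the plus strand in the 6759 bases of chr29:41461140-41467898, each no more than 1000 bases from its neighbour, and the next largest group joined in this way had 7. The 25 were listed 4 to 8 at a time in each library and had 12, 11 and 14 back-splice reads in the Boer animals and 16, 30 and 25 in the Macheng black animals. Against these 108 back-splice reads (0.432% of the class's) stood 625196 non-junction reads, 59.9% of the class's. They covered 6348 of the 878580 bases that the class covers. Where circRNAs overlap, 1 non-junction read may be listed for several, so the sum is not a number of distinct reads.

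Of these 25, 21 were listed in 1 library and 1, chr29:41465632-41465792, in all 6. Their median back-splice share was 0.00983%. An entry of the group had a median of 8420 non-junction reads, against 31 for entries of the class outside it, and the values ran from 17 to 90632. Another 9 circRNAs, all over 1000 bases and with unusable hosts, overlapped the place. Outside the group chromosome 29 held 56 of the class, or 19.0% of its other circRNAs. The name of the gene is not known from these files.

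**Figure D4:**
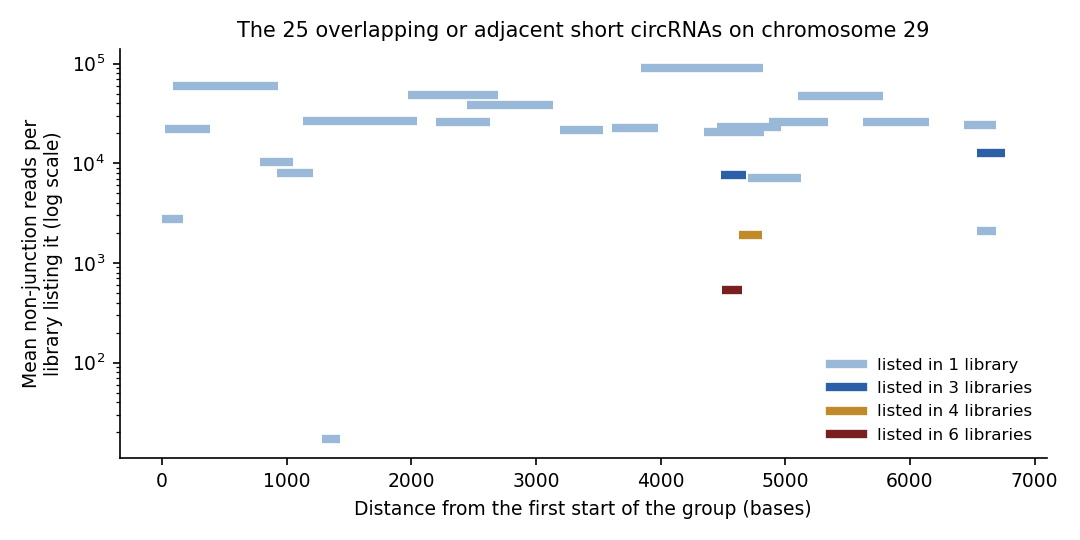
The group of 25 short unusable-host circRNAs on chromosome 29, each no more than 1000 bases from its neighbour, drawn to scale by distance in bases from the first start. The height gives the mean number of non-junction reads over the libraries that list the circRNA, on a log scale, and the colour the number of those libraries. Of the 25, 21 were listed in 1 library, and the 1 listed in all 6 has a mean of 534.5 non-junction reads.

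A few other places had the same make-up. On chromosome 19, 2 overlapping circRNAs at 50192277 to 50192781, plus strand, had 5 back-splice and 35955 non-junction reads. On chromosome 29, 2 at 38798478 to 38799323, minus strand, had 12 and 18068. Over the class, 97 entries (3.13%) had over 1000 non-junction reads, of which 30 were in the group of 25, while 12.9% of the entries of circRNAs outside the class did. The circRNAs outside the class are mostly longer, so the entries compared differ in length.

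Whether the class differed between breeds was asked first of whole libraries. It took 9.34% (9.13 to 9.55%), 10.7% (10.4 to 11.1%) and 9.83% (9.54 to 10.1%) of the back-splice reads in Boer. In Macheng black it took 9.48% (9.19 to 9.77%), 9.79% (9.53 to 10.1%) and 11.7% (11.3 to 12.1%; exact Clopper-Pearson 95% intervals, which cover counting error only). The breed means were 9.97% ± 0.707 and 10.3% ± 1.19 (SD, n = 3 each). Boer minus Macheng black was -0.345 points, smaller in size than the SD of either breed. An exact two-sided permutation test over libraries gave p = 0.7 (smallest possible 0.1). The highest library of each breed was its shallowest.

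As a share of the circRNAs that a library lists, the class made up 9.25%, 12.2% and 10.1% in Boer and 10.9%, 10.2% and 14.0% in Macheng black (10.5% ± 1.54 and 11.7% ± 2.04, SD, n = 3 each, p = 0.5 in the same exact test). The median back-splice share had breed means of 9.21% ± 1.32 (Boer) and 10.2% ± 1.62 (Macheng black; SD, n = 3 each, same exact test, p = 0.5). At 23480 reads drawn from each library, 230 (Boer 1), 405 (Boer 2) and 290 (Boer 3) were listed in Boer. The Macheng black libraries then listed 301, 272 and 469, with means of 308 ± 89.0 and 347 ± 106 (SD, n = 3 each, same exact test, p = 0.6). The undrawn numbers, 534 ± 108 and 500.0 ± 44.5, had the opposite order (same exact test, p = 0.7). Drawing from lists that start at 2 reads removes more from deep libraries, and Macheng black 3 was kept whole. None of these 4 values separated the breeds.

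Over breeds, 1173 of the class were listed in Boer, 1070 in Macheng black and 397 in both. These 397 were 33.8% of the Boer and 37.1% of the Macheng black number. Listed in all 3 Boer libraries and in no Macheng black library were 3, and the reverse held for 6. After drawing equal reads these numbers were 1.45 and 6.80, as means of 20 draws. The matching shares over all circRNAs are not given here. These counts are therefore a description only, and are not read as a trait of the class or as a breed difference.

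For single circRNAs, 302 of the 1846 (16.4%) had at least 2 reads in at least 3 libraries and could be tested, against 26.6% of all circRNAs. With edgeR's quasi-likelihood test and Benjamini-Hochberg adjustment over all 3712 tested circRNAs, 0 of the 302 passed an adjusted p of 0.05 (lowest 0.471), where 13 of the 3712 (0.35%) did. Of these 13, 4 (0.108% of all tested) had more reads in Boer and 9 (0.242%) had more in Macheng black. At an unadjusted p under 0.05 there were 17, of which 6 were higher in Boer and 11 in Macheng black, or 5.63% against 5.23% of all tested. DESeq2 gave 0 and 9. A share so close to that of all circRNAs is not a result about the class. The test has little power here: on simulated counts it recovered 6% of 4-fold and 50% of 16-fold changes.

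The median log2 fold change of Boer over Macheng black was -0.15 in the 302 and 0.11 in all tested. It was above 0 in 129 and below 0 in 173, so that 42.7% were above 0 against 54.6% of all tested. The median size of the change was 0.71 against 0.64. Every Boer library exceeded every Macheng black library in 20 of the 302 (6.62%, against 6.92% of all tested), and the reverse held in 26 (8.61%, against 4.8%). Over the 6 libraries, the median coefficient of variation of the CPM was 39.2% in the 92 listed in all 6 and 39.8% in long-span circRNAs listed in all 6.

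**Figure D5:**
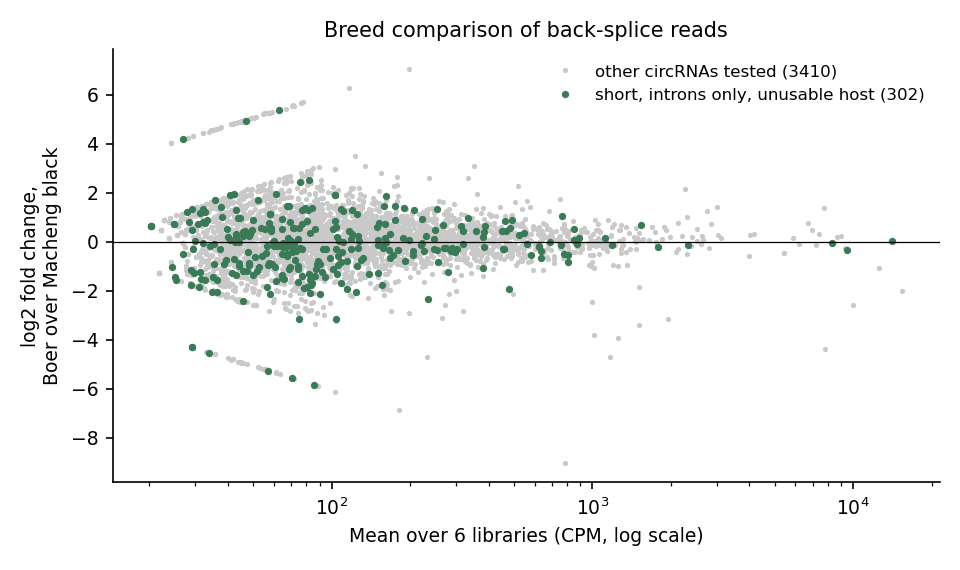
Log2 fold change of back-splice reads, Boer over Macheng black, against the mean level in CPM (log scale) for the 3712 circRNAs tested. Green points are the 302 short unusable-host circRNAs and grey points all others. The green points lie on both sides of 0 (129 above, 173 below) and none passed the adjusted threshold; the outer bands are circRNAs not listed in 1 breed, whose fitted values depend on the prior count.

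Among those with the smallest p higher in Boer, chr26:10317225-10317577 (353 bases, minus strand) was listed in every library. It had 79, 33 and 31 back-splice reads in Boer and 25, 19 and 10 in Macheng black, or 1025 ± 264 and 498 ± 174 CPM (SD, n = 3 each). The breeds did not overlap, but the log2 fold change of 1.03 ± 0.42 (SE) had an adjusted p of 0.843 in edgeR's test. Another, chr15:14803799-14804514 (716 bases), had 12, 8 and 13 reads against 3, 2 and 2, also without overlap (log2 fold change 1.88 ± 0.84, adjusted p = 0.88).

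The other 3 were listed in all 3 Boer libraries alone. They met the filter of at least 2 reads in at least 3 libraries only through the breed where they are high. Their bounds and adjusted p-values are therefore a description, and not evidence of a breed difference. They were chr15:6410658-6411432 (775 bases; 5, 4 and 7 reads), chr21:19718712-19719622 (911 bases; 2, 6 and 2 reads) and chr3:55564625-55565320 (696 bases; 3, 2 and 2 reads). An unlisted library may hold 1 read, so 3 reads over the breed were taken as the floor. Against it the levels were at least 4.30-fold, 3.22-fold and 1.84-fold higher in Boer, if the caller missed no more than that. The second rests on Boer 2: without it, the bound for chr21:19718712-19719622 was 1.33-fold. These bounds do not cover counting error on so few reads. In edgeR's test the adjusted p of the 3 ran from 0.843 to 0.909.

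Of the 5 with the smallest p higher in Macheng black, chr5:39081949-39082854 (906 bases, plus strand) had 9, 11 and 18 reads there and 6, 4 and none listed in Boer. The levels of 392 ± 254 and 76.5 ± 69.9 CPM (SD, n = 3 each) did not overlap, and the log2 fold change was -2.32 ± 0.75 (adjusted p = 0.471 in edgeR's test). Its back-splice share was alike in the 5 libraries that list it, 11.8% to 16.4%.

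Listed in the 3 Macheng black libraries alone were chr27:36340550-36341539 (990 bases; 11, 6 and 2 reads), chr19:41412510-41412990 (481 bases; 5, 6 and 4 reads) and chr15:36161841-36162473 (633 bases; 8, 2 and 2 reads). Against the same floor they were at least 7.04-fold, 5.79-fold and 4.69-fold higher in Macheng black. Without Macheng black 1 the bounds for chr27:36340550-36341539 and chr15:36161841-36162473 were 4.25-fold and 2.46-fold. The most even levels of the 3 were those of chr19:41412510-41412990, 141 ± 10.6 CPM (SD, n = 3). In edgeR's test the adjusted p was 0.471 for chr27:36340550-36341539, 0.683 for chr19:41412510-41412990 and 0.843 for chr15:36161841-36162473. The bounds allow for unlisted reads only, and not for counting error on so few reads. These 3 also met the filter only through the breed where they are high, so their values are likewise a description.

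The last, chr19:32417455-32417682, had 4, 5 and 15 reads in Boer and 15, 5 and 46 in Macheng black, so the breeds overlapped. Its log2 fold change was -1.93 ± 0.65 (adjusted p = 0.607). It was the only one of the 302 to pass in an edgeR fit with a library left out, without Boer 3 (-2.75, adjusted p = 0.00315) and without Macheng black 1 (-2.22, adjusted p = 0.0129). Without Macheng black 3, which holds 46 of its 90 reads, the value was -0.39 (adjusted p = 0.999), so 1 library decides it. Over all alternatives its adjusted p ran from 0.00315 to 0.999.

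The back-splice share was compared between breeds in the 92 listed in all 6 libraries, with both read kinds in 1 edgeR fit over all 1132 such circRNAs. None of the 92 passed an adjusted p of 0.05 (lowest 0.564), nor did any of the 1132 (0.0%). At an unadjusted p under 0.05 there were 4 of the 92 and 37 of the 1132 (3.27%). The median log2 ratio of back-splice to non-junction reads, Boer over Macheng black, was 0.23 in the 92 and 0.46 in all 1132, and it was above 0 in 63 (68.5%) against 79.2%. Both read kinds of a library were scaled alike. A library's overall ratio of both kinds therefore enters these values, and the ratio of the single circRNA below as well. In chr5:100365306-100366144, where the levels did not overlap, the share was 84.3%, 69.0% and 61.7% in Boer and 63.5%, 61.5% and 35.1% in Macheng black, and this difference did not pass either (log2 ratio 1.15, adjusted p = 1.0 in edgeR's test).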

How the data were processed

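The submitters deposited 1 list of circRNAs for each of 6 follicle libraries, made from ribosome-depleted total RNA, per the labels' protocols. The submitters' processing notes name Bowtie2 2.0.6 and TopHat2. Neither the caller of circRNAs with its thresholds nor the build and annotation is given in the sources used here. The deposited values are whole-number counts of back-splice and of non-junction reads, not normalized, per the file headers. What counts as a non-junction read is not given there. Full and spliced length are other deposited values, per the file headers. End minus start equalled the full length in 28870 of 28870 entries, so deposited starts count from 0; printed starts are 1 higher.

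CircRNAs were matched by chromosome, start, end and strand, and those not listed in a library entered tests as 0. A circRNA belonged to the class if any of its entries met the rule. The comparison classes were set from the first listed entry of a circRNA alone. A circRNA outside the class whose first entry named no host was thus put among all others, whatever its later entries named. What this difference does to the class comparisons was not tested. A library's size was the sum of its listed back-splice reads. Breeds were compared with edgeR 4.0.16 in R 4.3.3 (quasi-likelihood test, trimmed mean of M-values, at least 2 reads in at least 3 libraries, no block, threshold 0.05), and the back-splice share with an edgeR model of both read kinds and their interaction with breed. SEs of log2 fold changes come from the size of the change and its F value. Single values per library were tested by exact permutation in scipy 1.17.1 with Python 3.11.15. Equal depth was made by drawing 23480 reads without replacement, 20 times, and dropping circRNAs left with 1 read. The labels call the animals separate goats, so n counts animals. Both tests were checked on simulated counts. The share test recovered 28% of 4-fold and 97% of 16-fold changes, with 1 false call among the unchanged ones of 1132 circRNAs. Its simulated counts had less spread between libraries than the fit found in the data, so these percentages are likely too high for these data.

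Named circRNAs followed a fixed rule: the 10 highest in mean CPM, the 5 smallest p in each direction of the breed test and any past the threshold, the 4 highest and 4 lowest mean back-splice shares among those in all 6 libraries with at least 20 reads, the 3 shortest, the 3 on each side of the length limit, the 3 most used ends, any past the threshold in the share test, and any inside a usable host on its own strand. The class, the comparison classes and the lists were chosen with earlier results of these data known. Alternatives were DESeq2 1.42.0, its size factors in edgeR, other filters, a replicate block, other forms of the share and leaving out each library. Host identifiers were looked up in a RefSeq gene table (assembly ARS1.2), in which 1 of the 27 unusable ones was found; no coordinates were taken from it. No sequences are shown, since no genome of the files' build was used here.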

Additional observations from a re-analysis of the deposited data

How the results depend on the processing

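No short unusable-host circRNA passed an adjusted p of 0.05 in the breed test under edgeR with DESeq2's size factors, DESeq2, no filter, a filter of 5 reads, or a replicate block (0 called, 7 at an unadjusted p under 0.05, against 17), and leaving out a library gave 0 to 1. With no filter 35 of all 13950 circRNAs passed, with a filter of 5 reads 2 of 1640, and without Boer 2 1 of 3712 (15 of 3405 when the filter was applied again, an alternative chosen after seeing the data), against 13; DESeq2 called 8, and leaving out Boer 1 called 4 and Macheng black 1 called 21. The labels do not say that their numbers pair the animals. Same-numbered libraries of the breeds had correlations of -0.0357 to 0.0187 in their deviations from the breed means. Differently numbered ones had -0.0319 to 0.0458. With so few libraries these values cannot decide whether animals were paired. Sign flips over label numbers as blocks, added after seeing the data, gave the 4 values per library p = 0.75 (exact permutation test). With so few label numbers that test cannot reach 0.05. In the share test the block called 0 of the 92, as did all other settings (0 to 0 without a library). Of all circRNAs in the share test, 2 of 1132 passed without Boer 2 and none in the other settings. The breed difference in the class's share of reads turned to 0.334 points without Macheng black 3 (-0.762 to 0.334 over left-out libraries). That in its share of listed circRNAs stayed below 0 (-2.02 to -0.00444). That in the median back-splice share was 0.310 points over summed reads, -0.752 when these left out the chromosome 29 group (chosen after seeing the data), and -1.93 to -0.331 without a library. That in circRNAs listed at equal depth was 33.7 without drawing, 0.300 without Boer 1 and 21.9 without Macheng black 3 (-87.3 to 21.9). The cause was not tested.

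In the comparison of classes, summed reads gave share differences of 1.01 points from the long-span class, -45.7 from short intron-only circRNAs with a usable host, -6.08 from short circRNAs with a listed exon (adjusted p = 0.05 each) and 0.323 from all others. Without the chromosome 29 group they were 4.45, -42.3, -2.64 and 3.77, and all 4 passed (adjusted p = 0.0417). Median instead of mean reads gave log2 differences of 0.0 from short intron-only circRNAs with a usable host and -0.36 from those with a listed exon. Without circRNAs over 1% of a library they were -0.48 (long-span), -0.43 (listed exon) and -0.52 (all others). With 5 libraries the sign-flip test cannot pass, and the values ran from 7.83 to 8.44, -30.4 to -25.3, -6.36 to -4.69 and 6.76 to 7.28 points for the shares, in the order long-span, usable host, listed exon and all others. The log2 differences in reads ran from -0.16 to -0.10, -1.24 to -1.05, 0.081 to 0.12 and -0.18 to -0.11.

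Of the named fold changes, 21 values turned sign, all of circRNAs near 0 among the 10 most abundant and none past the threshold. For chr24:40207860-40208323 they were -0.020 with DESeq2's size factors, -0.022 with DESeq2, -0.082 without Boer 1, -0.0088 without Boer 2 (-0.0039 filtered again) and -0.090 without Macheng black 1. For chr15:27869239-27870107 they were 0.017 unfiltered, 0.020 with the block, 0.082 without Boer 2 (0.11 filtered again), 0.0092 without Macheng black 1 and 0.28 without Macheng black 3. For chr14:75877520-75878366 they were 0.079 without Boer 2 (0.088 filtered again) and 0.25 without Macheng black 2, for chr6:42973034-42973783 0.14 without Macheng black 2, and for chr14:73961357-73961777 0.00094 without Boer 3 and 0.25 without Macheng black 1. For chr10:13808217-13809061 the value was -0.40 without Boer 1, and for chr9:75419129-75419738 -0.16 without Boer 1 and -0.083 without Macheng black 3. Of the 1846, 1084 had 2 reads in total, the lowest number listed.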
